A study of Oryza nivara and Oryza rufipogon with 42 samples.

Results

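Flowering panicles of the perennial wild rice Oryza rufipogon were compared with its heading panicles, using 12 of the 42 libraries of a study of 2 wild rice species. The 12 libraries are the digital gene expression (DGE) libraries whose labels give the species and 1 of the 2 panicle stages, 6 for each stage. DGE counts a short tag cut from near the 3′ end of each transcript, and 6 further libraries of the study were paired-end RNA-seq. The flowering panicles came from plants 43, 47 and 50 in 2009 and plants 95, 199 and 230 in 2010, and their labels place them 10 to 15 cm above the primary branch. The heading panicles came from plants 43, 47 and 49 in 2009 and plants 95, 199 and 230 in 2010, so 5 plants gave both stages. All plants were untreated and greenhouse-grown, from accessions of India, Thailand or Myanmar, and none carries an allele or transgene named in the labels. The number in a library title was taken as the plant. Plants differ in origin, and the labels give neither the age of a plant nor the hour of sampling.

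At heading the panicle emerges from the sheath of the flag leaf, while its spikelets hold anthers that may still be forming pollen. The tapetum, the innermost layer of the anther wall, makes the lipid precursors of the pollen wall and then breaks down, after which the pollen matures, stores starch and switches on genes of the pollen tube. At flowering the spikelets open, the anthers shed pollen and the young grain begins to draw sugar. In the same days stems, branches and husks of the panicle finish laying down secondary cell walls built from cellulose.

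Totals were 2021814 to 4094708 counts in flowering panicles and 1951781 to 4164766 in heading panicles, and were higher in 2010 (2677440 to 4164766) than in 2009 (1951781 to 2712054). After thinning each library to 1725036 counts, flowering panicles had 19490 ± 270 genes detected and heading panicles 19379 ± 254 (SD, n = 6 each; exact permutation p = 0.472, two-sided). The difference was 131 genes in 2009 and 91 genes in 2010. The deposited table lists 20134 genes and had been filtered by level, so nearly all of them were detected in every library. The test can therefore say little about how many genes each stage expresses. The 100 most abundant genes took 20.5% ± 3.6 of counts at flowering and 20.03% ± 3.45 at heading (SD, n = 6 each; exact permutation p = 0.849, two-sided), with differences of 0.37 percentage points in 2009 and 0.47 in 2010. The floral organ identity genes were present at both stages, with summed levels of 1728 to 3009 CPM at flowering and 1881 to 2862 CPM at heading. CPM is the tag count of a gene scaled by its library total times the edgeR normalization (TMM) factor of that library, which ran from 0.892 (230F) to 1.442 (49H). OsMADS16 (LOC_Os06g49840), which specifies lodicules and stamens, lay at 175 to 1263 CPM in flowering panicles and 385 to 1761 CPM in heading panicles, against a mean of 13.8 CPM in flag leaves. Some libraries stood apart within their stage. The heading panicles of plants 43 and 199 had by far the highest levels of several sporopollenin genes, the heading panicle of plant 49 was lowest for several tapetum genes, and the flowering panicle of plant 230 lay farthest from the other 5 on the second principal component. Values without these libraries are given beside several of the genes and lists that they move. Collection year also separated the libraries within each stage. On the second principal component flowering panicles lay at 87.4 to 161 in 2010 and at −27.6 to −16.9 in 2009. On the first, heading panicles lay at 110 to 139 in 2010 and at −43.5 to 47.4 in 2009.

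Of 20018 genes tested, 1643 (8.21%) differed between the stages at an edgeR adjusted p under 0.05. Of these, 837 (4.18%) were higher and 806 (4.03%) lower in flowering panicles, and the median log2 difference over all genes tested was 0.01. Differences were large where they were called, with 796 higher and 781 lower genes changed at least 2-fold. All 5 plants sampled at both stages moved in the called direction for 748 of the 837 higher genes and 697 of the 806 lower genes. The libraries of these plants are among those that gave the calls, so this agreement is not separate support for them. The CPM of the 2 stages did not overlap for 556 genes higher in flowering panicles (2.78%) and for 250 genes lower (1.25%). Fitted within 1 year, 3 plants against 3, the 2010 plants gave 735 higher and 432 lower genes, while the 2009 plants gave 2 higher and 1 lower, with 1791 genes at an unadjusted p under 0.05. Without the flowering panicle of plant 230 the calls numbered 454 higher and 508 lower, and without the heading panicle of plant 199 they numbered 532 higher and 546 lower. Without the heading panicle of plant 95 there were 540 higher genes.

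Genes of mature pollen rose at flowering. Of 6 tested members of the late pollen list, 4 were higher and none lower, and the median log2 difference was 4.12, against 0.01 over all genes and 4.18% of genes called higher. Their summed level was 165 to 1036 CPM in flowering panicles and 7.5 to 59.0 CPM in heading panicles, so the stages did not overlap, and all 6 members were higher at flowering in each of the 5 plants. In bulk tissue, more pollen and more transcript per pollen grain cannot be told apart. RUPO (LOC_Os06g03610), a receptor kinase of the pollen tube, had 28.1 CPM at the lowest, 60.3 at the median and 706 at the highest in flowering panicles, against 0, 2.06 and 2.49 CPM in heading panicles. The highest value belonged to plant 230. The log2 difference was 6.49 ± 1.5 (SE; edgeR adjusted p = 0.00571), and 4.82 (edgeR adjusted p = 0.0265) without that library. OsSUT3 (LOC_Os10g26470), a sucrose transporter of pollen, ranged from 4.96 to 88.8 CPM at flowering (median 23.7) and from 0 to 2.08 CPM at heading (median 0.533), a log2 difference of 4.87 ± 1.27 (SE; edgeR adjusted p = 0.0142). This call was lost without the heading panicle of plant 199 (edgeR adjusted p = 0.06), plant 95 (0.0587) or plant 230 (0.0526), with log2 differences of 4.32 to 4.37. Without the heading panicle of plant 199, 95 or 230, or without those of plants 43 and 199 together, 2 of the 6 late pollen genes were called.

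Of 3 MADS-box factors of mature pollen, 2 rose. OsMADS62 (LOC_Os08g38590) lay at 13.0 to 93.8 CPM in flowering panicles (median 16.2) and 0 to 4.62 CPM in heading panicles (median 0.845), with a log2 difference of 4.60 ± 1.12 (SE; edgeR adjusted p = 0.00853), and of 3.59 (edgeR adjusted p = 0.0378) without the flowering panicle of plant 230. OsMADS68 (LOC_Os11g43740) lay at 13.0 to 57.8 CPM (median 25.7) in flowering panicles and 0 to 8.53 CPM (median 3.12) in heading panicles, a log2 difference of 3.64 ± 0.97 (SE; edgeR adjusted p = 0.0167). Neither gene overlapped between the stages. The OsMADS68 call was lost without the heading panicle of plant 199 (edgeR adjusted p = 0.0615), 95 (0.052) or 230 (0.0511). OsMADS63 (LOC_Os06g11970) did not overlap either, with 49.2 to 234 CPM in flowering panicles and 1.14 to 38.4 CPM in heading panicles, and missed the threshold (log2 difference 2.48 ± 0.99 SE, edgeR adjusted p = 0.126). With plant as a replicate block its log2 difference was 3.36 (edgeR adjusted p = 0.0168) in the 36-library fit and 3.25 (0.0568) over the 12 libraries, so it passed in 1 of the 2. OsGCS1 (LOC_Os05g18730), which sperm cells need to fuse with the egg, had 3.43 to 31.0 CPM at flowering and 2.27 to 20.4 CPM at heading, and was not called (edgeR adjusted p = 0.187). The remaining 2 of the 8 listed pollen genes, both beta-expansins, were not in the DGE table.

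Genes that build the pollen wall fell. Of 18 members of the pollen wall and anther cuticle list, 11 were lower in flowering panicles and none higher, against 4.03% of genes called lower, and the median log2 difference was −4.47. Their summed level was 309 to 6101 CPM in flowering panicles and 1548 to 29523 CPM in heading panicles, ranges that overlapped. Each of the 18 members overlapped between the stages. Lower at flowering were 15 of 18 in plants 43 and 95, 14 in plant 199, 13 in plant 47 and 11 in plant 230. With limma in place of edgeR 5 of 18 were called, at a median of −2.42. Much of the fall rested on the heading panicles of plants 43 and 199. Without these 2 libraries, a choice made after the data were seen, 2 of 18 were called and the median was −1.21. Without the heading panicle of plant 199 alone 7 were called. With plant as a replicate block, 6 of 18 were called in the 36-library fit, at a median of −3.22, and 1 of 11 tested in the fit of the 12 panicle libraries, at a median of −1.73. The 12 libraries fitted without the block gave 4 of 11, at a median of −2.0. The members missing from both 12-library fits passed the count filter only with the other libraries of the series included. The medians of these 2 fits therefore cover fewer genes than the main one.

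**Figure D1:**
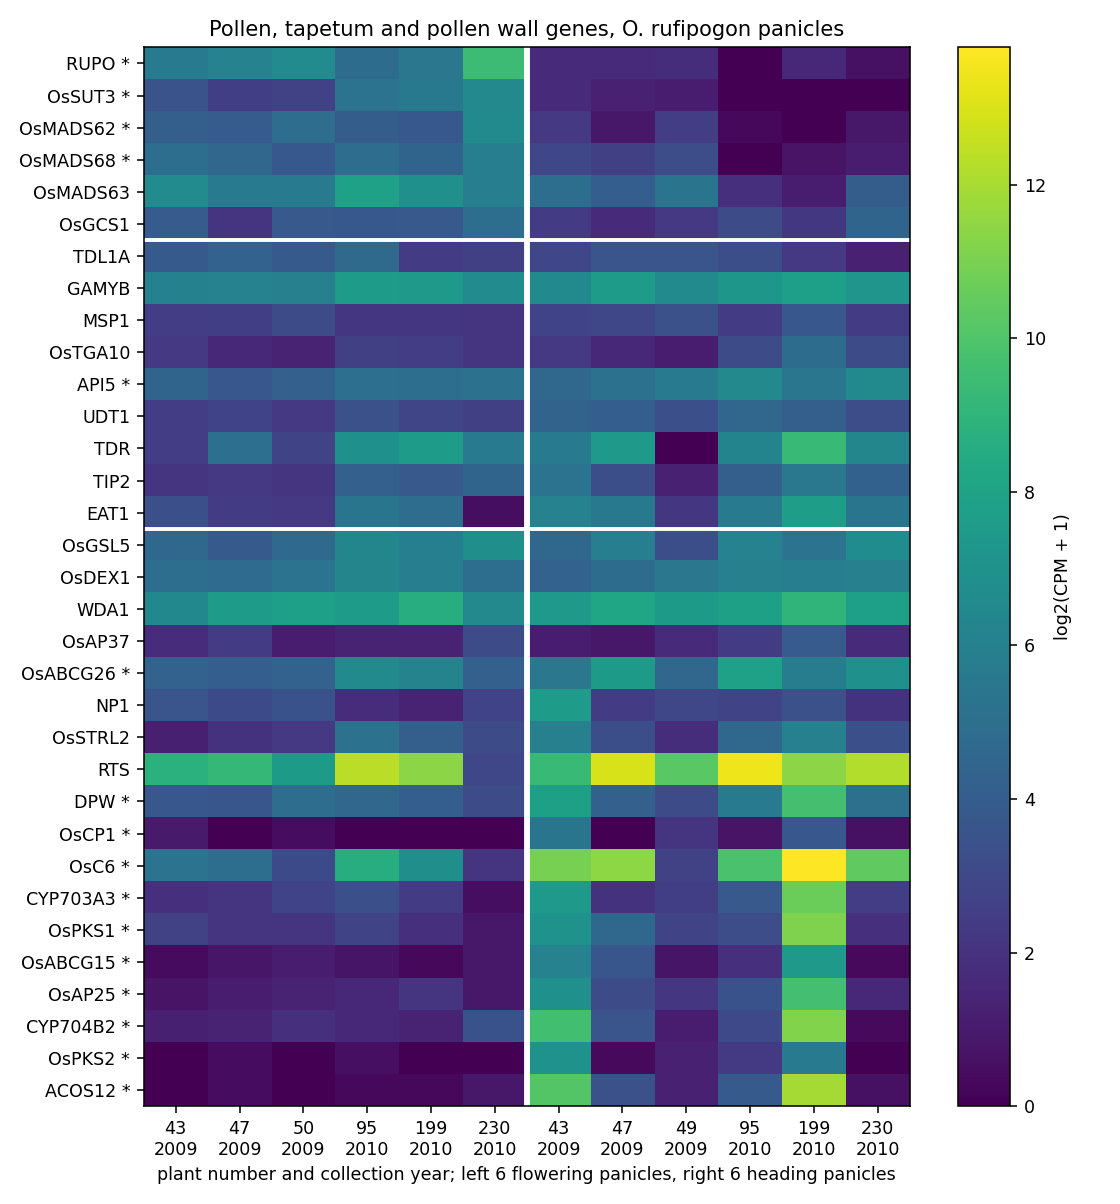
Level of each tested late pollen gene (top block), tapetum regulator (middle) and pollen wall gene (bottom) as log2(CPM + 1), in the 6 flowering panicles (left) and the 6 heading panicles (right) by plant and year; asterisks mark genes called between stages. Pollen genes are brighter in the flowering columns, and sporopollenin genes such as ACOS12 and CYP704B2 are brightest in the heading panicles of plants 43 and 199.

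The sporopollenin genes make the resistant outer polymer of the pollen wall, and their levels differed widely among heading panicles. ACOS12 (LOC_Os04g24530), an acyl-CoA synthetase, had 0 to 0.838 CPM in the 6 flowering panicles (median 0.228). In heading panicles it had 3960 CPM in plant 199, 1112 in plant 43, 14.2 in plant 95, 9.67 in plant 47, 1.42 in plant 49 and 0.557 in plant 230. Plant 230 was thus as low at heading as at flowering, with 0.838 CPM at flowering. The log2 difference was −11.39 ± 1.94 (SE; edgeR adjusted p = 0.000772), a fitted value that depends on how the near-zero flowering counts are handled. Without the heading panicles of plants 43 and 199 it was −4.52 (edgeR adjusted p = 0.0204). CYP704B2 (LOC_Os03g07250), a fatty acid hydroxylase of the same pathway, had 1.32 to 10.1 CPM at flowering (median 1.71) and 0.279 to 2279 CPM at heading (median 9.24). Its log2 difference was −7.48 ± 1.55 (SE; edgeR adjusted p = 0.00263). Without the heading panicles of plants 43 and 199 it was −0.75 (edgeR adjusted p = 0.755), and with the replicate block in the 36-library fit −4.57 (edgeR adjusted p = 0.186).

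OsC6 (LOC_Os11g37280), a lipid transfer protein secreted by the tapetum, had 3.35 CPM at the lowest, 33.7 at the median and 379 at the highest in flowering panicles, against 5.68, 1693 and 14122 CPM in heading panicles. The lowest heading value was that of plant 49, and the other 5 heading panicles, at 908 to 14122 CPM, lay above all flowering panicles. The log2 difference was −5.55 ± 1.39 (SE; edgeR adjusted p = 0.0107), and −4.18 (edgeR adjusted p = 0.063) without the heading panicles of plants 43 and 199. Without that of plant 49 it was −5.92 (edgeR adjusted p = 0.00468). OsAP25 (LOC_Os03g08790), an aspartic protease tied to tapetal cell death, had 0.662 to 3.35 CPM at flowering and 1.95 to 810 CPM at heading, a log2 difference of −6.29 ± 1.25 (SE; edgeR adjusted p = 0.00197). Without the heading panicles of plants 43 and 199 it was −2.02 (edgeR adjusted p = 0.214). RTS (LOC_Os01g70440), a tapetum gene needed for male fertility, was abundant at both stages and not called, with 6.70 to 5190 CPM at flowering and 615 to 11088 CPM at heading (edgeR adjusted p = 0.233). OsGSL5 (LOC_Os06g08380), the callose synthase of the anther, had a log2 difference of −0.02 ± 0.55 (SE; edgeR adjusted p = 0.993).

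The regulators of the tapetum moved less. Of 9 tested, 1 was lower and none higher, against 4.03% of genes called lower, with a median log2 difference of −1.13. The one called was API5 (LOC_Os02g20930), an inhibitor of programmed cell death, with 12.6 to 34.3 CPM at flowering (median 25.5) and 23.3 to 91.4 CPM at heading (median 44.9). Its log2 difference was −1.13 ± 0.28 (SE; edgeR adjusted p = 0.0101). With the replicate block it was −0.95 (edgeR adjusted p = 0.0564) in the 36-library fit and −1.09 (0.0559) over the 12 libraries, and without a year term −1.15 (0.0623). EAT1 (LOC_Os04g51070), a bHLH factor of the late tapetum, had 0.419 to 39.7 CPM at flowering (median 6.73) and 3.55 to 211 CPM at heading (median 48.7). It was lower at flowering in each of the 5 plants and was not called (log2 difference −2.45 ± 1.0 SE, edgeR adjusted p = 0.14), while the replicate block gave −2.72 (edgeR adjusted p = 0.0172) in the 36-library fit and −2.93 (0.0234) over the 12 libraries. TDR (LOC_Os02g02820), a bHLH factor of tapetum breakdown, had 4.64 to 196 CPM at flowering and 0 to 657 CPM at heading, where the count of 0 was that of plant 49. It was not called with that library (log2 difference −1.78, edgeR adjusted p = 0.215) or without it (−2.08, 0.073). None of the 8 tested meiosis genes, 13 cell cycle genes or 18 floral organ identity genes was called in either direction, and their median log2 differences were −0.18, −0.31 and 0.38.

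Genes of the cell wall fell together. The list of 12, all tested, holds cellulose synthases of primary and secondary walls, a COBRA-like and a chitinase-like protein, a lignin enzyme and factors that switch on secondary wall genes. Of these, 9 were lower in flowering panicles and none higher, against 4.03% of genes called lower. All 3 primary wall synthases (CESA1, CESA3 and CESA8) and 2 of the 3 secondary wall synthases were among the 9. The median log2 difference was −2.46. Their summed level was 96.1 to 595 CPM at flowering and 488 to 2904 CPM at heading, and in each of 4 of the 5 plants all 12 were lower at flowering, with 11 of 12 in plant 43. Leaving out 1 library left 6 to 9 called, the fewest without the heading panicle of plant 47, at medians of −2.60 to −2.08. Without the heading panicles of plants 43 and 199 there were again 9, at a median of −2.22. With the replicate block 7 were called in the 36-library fit and 11 over the 12 libraries, and without a year term 3. CESA9 (LOC_Os09g25490), a catalytic subunit of the secondary wall cellulose synthase, had 5.34 to 47.6 CPM in flowering panicles (median 11.8) and 57.9 to 350 CPM in heading panicles (median 157). The stages did not overlap, and the log2 difference was −3.36 ± 0.82 (SE; edgeR adjusted p = 0.00884). CESA7 (LOC_Os10g32980), another subunit, had 3.43 to 40.0 CPM at flowering and 17.8 to 223 CPM at heading, a log2 difference of −3.26 ± 0.77 (SE; edgeR adjusted p = 0.00669). CESA4 (LOC_Os01g54620), the third, had 10.9 to 101 CPM at flowering and 109 to 342 CPM at heading without overlap, and missed the threshold (log2 difference −2.59 ± 0.86 SE, edgeR adjusted p = 0.0583). With the replicate block its log2 difference was −2.87 (edgeR adjusted p = 0.0166) over the 12 libraries and −2.34 (0.0755) in the 36-library fit.

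Other wall genes of the list shared the direction. BC1 (LOC_Os03g30250), a COBRA-like protein whose loss makes rice culms brittle, had 1.52 to 53.0 CPM at flowering (median 11.3) and 40.5 to 770 CPM at heading (median 174). Only the flowering panicle of plant 199 reached the range of the heading panicles, and the log2 difference was −3.89 ± 0.89 (SE; edgeR adjusted p = 0.00527). Without a year term BC1 and CESA7 were not called (edgeR adjusted p = 0.0717 and 0.0523). SWN1 (LOC_Os06g04090), a NAC factor that switches on secondary wall genes, had 2.29 to 24.8 CPM at flowering (median 9.29) and 18.1 to 114 CPM at heading (median 78.1), a log2 difference of −2.82 ± 0.55 (SE; edgeR adjusted p = 0.00171). The primary wall synthase CESA8 (LOC_Os07g10770) also fell without overlap, with 27.8 to 71.8 CPM at flowering and 114 to 327 CPM at heading (log2 difference −1.98 ± 0.46 SE, edgeR adjusted p = 0.00581). GH2 (LOC_Os02g09490), a cinnamyl alcohol dehydrogenase of lignin synthesis, had 11.4 to 82.1 CPM at flowering and 38.4 to 155 CPM at heading and was not called (edgeR adjusted p = 0.317). Its log2 difference with the replicate block was −1.44 (edgeR adjusted p = 0.0186) over the 12 libraries and −1.3 (0.317) in the 36-library fit.

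Fitted on the plants of 1 year only, the late pollen, pollen wall and cell wall lists kept their direction. The median log2 difference was 1.93 in 2009 and 6.38 in 2010 for late pollen genes, −3.42 in 2009 and −2.72 in 2010 for pollen wall genes, and −2.34 in 2009 and −2.37 in 2010 for cell wall genes. None of these genes was called in 2009. In 2010, 4 of 6 late pollen, 2 of 16 tested pollen wall and 2 of 12 cell wall genes were called. Not every list kept its direction. The medians of the sugar supply, meiosis, clock, jasmonate and housekeeping lists had opposite signs in 2009 and 2010.

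**Figure D2:**
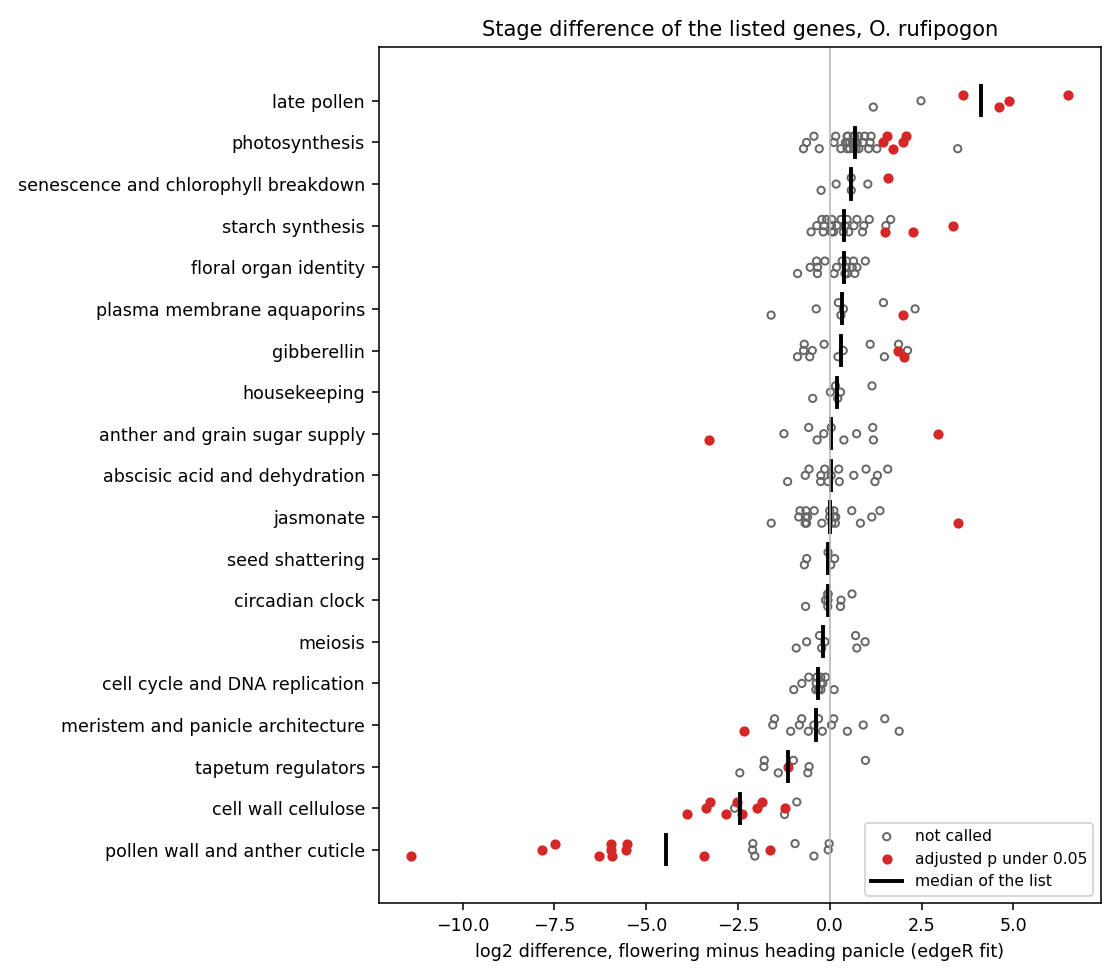
Fitted log2 difference, flowering minus heading panicle, of every tested member of the 19 gene lists; filled points were called at an adjusted p under 0.05 and the black bar is the median of the list. The late pollen list lies to the right (median 4.12) and the pollen wall and cell wall cellulose lists to the left (medians −4.47 and −2.46), while most other lists centre near 0.

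Starch genes split by member. Of 26 tested, 3 were higher at flowering and none lower, against 4.18% called higher, and the median log2 difference was 0.39. AGPL4 (LOC_Os07g13980), a large subunit of ADP-glucose pyrophosphorylase, the first committed enzyme of starch synthesis, had 88.8 to 254 CPM in flowering panicles (median 130) and 5.6 to 42.7 CPM in heading panicles (median 9.92). BEIIb (LOC_Os02g32660), a branching enzyme of the endosperm, had 289 to 533 CPM at flowering (median 374) and 26.8 to 261 CPM at heading (median 39.1). Neither gene overlapped between stages, and the 2 highest heading values of both belonged to plants 43 and 49. Their log2 differences were 3.35 ± 0.67 and 2.27 ± 0.56 (SE; edgeR adjusted p = 0.00204 for AGPL4 and 0.00917 for BEIIb). Without the heading panicles of plants 43 and 199 the BEIIb log2 difference was 2.14 (edgeR adjusted p = 0.0507). ISA3 (LOC_Os09g29404), a debranching enzyme, was nearly constant among flowering panicles at 149 to 191 CPM, against 31.3 to 88.9 CPM at heading (log2 difference 1.5 ± 0.41 SE, edgeR adjusted p = 0.0192). The ISA3 call was lost without the heading panicle of plant 95 (edgeR adjusted p = 0.0644) or plant 230 (0.0555). The other endosperm markers, SSIIa, SSIIIa, GBSSI, AGPL2, ISA1 and BT1, were not called, and GBSSI had 6.10 to 156 CPM at flowering and 2.84 to 19.8 CPM at heading.

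Among the sugar supply genes 1 of 11 was higher and 1 lower, against 4.18% and 4.03% of all genes. OsSWEET14 (LOC_Os11g31190), a sugar exporter, had 3.64 to 25.9 CPM at flowering (median 7.54) and 0.431 to 3.47 CPM at heading (median 1.02). All flowering panicles lay above all heading panicles, with a log2 difference of 2.95 ± 0.71 (SE; edgeR adjusted p = 0.00764). CSA (LOC_Os01g16810), a MYB factor that directs sugar to the anther, went the other way, with 1.68 to 11.6 CPM at flowering (median 4.44) and 1.07 to 129 CPM at heading (median 51.5). Its lowest heading value was again that of plant 49, and its log2 difference was −3.29 ± 0.73 (SE; edgeR adjusted p = 0.00421), and −3.64 (edgeR adjusted p = 0.000902) without that library. OsINV4 (LOC_Os04g33720), the cell wall invertase of anthers, had 84.1 to 580 CPM in 5 flowering panicles and 1.26 CPM in that of plant 230, against 2.73 to 179 CPM at heading, and was not called (edgeR adjusted p = 0.545).

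A pair of genes of early gibberellin synthesis, CPS1 and KO2, rose at flowering, while KS1 of the same list was not called. Of 14 tested genes of gibberellin synthesis, breakdown and perception, 2 were higher and none lower (4.18% of all genes were higher), with a median log2 difference of 0.29. CPS1 (LOC_Os02g17780), which makes the first diterpene intermediate, had 288 to 537 CPM in flowering panicles (median 378) and 39.2 to 192 CPM in heading panicles (median 114), with no overlap and a log2 difference of 1.86 ± 0.52 (SE; edgeR adjusted p = 0.0222). KO2 (LOC_Os06g37364), the kaurene oxidase, had 58.6 to 558 CPM at flowering (median 298) and 24.1 to 162 CPM at heading (median 85.6), where the lowest flowering value was that of plant 230. Its log2 difference was 2.03 ± 0.47 (SE; edgeR adjusted p = 0.00593). With the replicate block it was 1.92 (edgeR adjusted p = 0.0761) over the 12 libraries and 2.0 (0.0103) in the 36-library fit. The CPS1 call was lost without the heading panicle of plant 47 (edgeR adjusted p = 0.0546), 199 (0.0706) or 95 (0.0685), or without those of plants 43 and 199 together (0.0878). GA2ox1 (LOC_Os05g06670), which inactivates gibberellins, did not overlap, with 164 to 1135 CPM at flowering and 10.4 to 120 CPM at heading, and was not called (log2 difference 2.12 ± 0.94 SE, edgeR adjusted p = 0.185). Its log2 difference with the replicate block was 3.2 (edgeR adjusted p = 0.0213) in the 36-library fit and 3.1 (0.0472) over the 12 libraries.

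Photosynthesis genes leaned upward, with 5 of 34 higher and none lower against 4.18% of all genes higher, at a median log2 difference of 0.68. Their summed level was 10621 to 52296 CPM at flowering and 5267 to 27982 CPM at heading, and it also moved with year at heading, with 5267 to 9824 CPM in the 3 plants of 2009 and 26440 to 27982 CPM in the 3 of 2010. Plant 95 went against the others: 25 of its 34 members were lower at flowering, while 26 to 32 were higher in the other 4 plants. RBCS3 (LOC_Os12g19470), a small subunit of Rubisco, the enzyme that fixes carbon dioxide, had 1045 to 7217 CPM at flowering (median 2934) and 289 to 1692 CPM at heading (median 700). It was higher at flowering in each of the 5 plants, with a log2 difference of 2.00 ± 0.49 (SE; edgeR adjusted p = 0.00841). GAPA (LOC_Os04g38600), a Calvin cycle dehydrogenase, had 152 to 1054 CPM at flowering and 48.3 to 224 CPM at heading, a log2 difference of 1.56 ± 0.44 (SE; edgeR adjusted p = 0.0235). These calls did not hold under several alternatives. With the replicate block 1 of 34 was called in either fit, and RBCS3 and GAPA had edgeR adjusted p-values of 0.0932 and 0.128 in the 36-library fit and 0.0852 and 0.0949 over the 12 libraries. Without the flowering panicle of plant 230 1 of 34 was called, and without the heading panicles of plants 43 and 199 none. RBCS3 and RBCS4 are near-identical copies, so a tag they share could have been assigned to either.

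**Figure D3:**
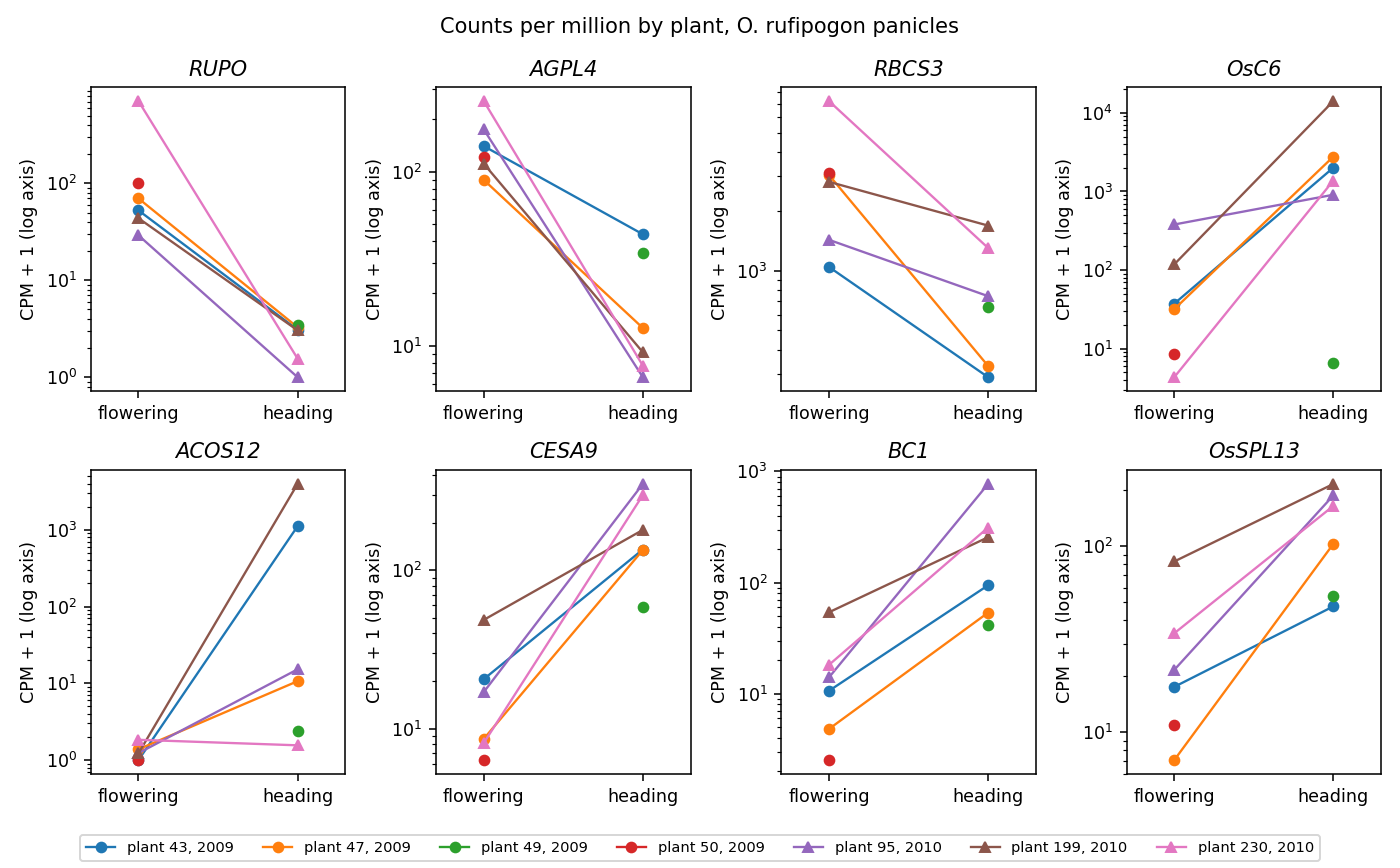
CPM + 1 on a log axis of 8 genes in flowering panicles (left of each panel) and heading panicles (right), with lines joining the 5 plants that gave both; circles are plants of 2009 and triangles plants of 2010. RUPO, AGPL4 and RBCS3 are higher at flowering in all 5 plants, OsC6, CESA9, BC1 and OsSPL13 lower in all 5, and ACOS12 is above 1000 CPM only in the heading panicles of plants 43 and 199.

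Single members moved in several further lists, where 1 call in a list of 22 genes is near the share of all genes called. OsSPL13 (LOC_Os07g32170), a promoter of grain length, was the 1 of 16 meristem and panicle architecture genes called lower (4.03% of all genes), with 6.10 to 81.9 CPM at flowering (median 18.6) and 46.5 to 215 CPM at heading (median 133). It fell in each of the 5 plants, by 2.34 ± 0.54 on the log2 scale (SE; edgeR adjusted p = 0.0055). It was not called without a year term (log2 difference −2.19, edgeR adjusted p = 0.0914) or in the plants of 2010 alone (−2.02, 0.0962). PIP2;2 (LOC_Os02g41860), a water channel, was the 1 of 8 aquaporins called higher (4.18% of all genes), with 53.0 to 389 CPM at flowering and 9.67 to 68.8 CPM at heading (log2 difference 2.01 ± 0.41 SE, edgeR adjusted p = 0.00231). The replicate block gave adjusted p = 0.0833 in the 36-library edgeR fit and 0.018 over the 12 libraries, and leaving out the year term 0.0675. NOL (LOC_Os03g45194), a chlorophyll b reductase, was the 1 of 6 senescence genes called higher (4.18% of all genes), with 10.7 to 75.5 CPM at flowering and 4.74 to 14.9 CPM at heading (log2 difference 1.59 ± 0.38 SE, edgeR adjusted p = 0.00722). The replicate block gave adjusted p = 0.0893 in the 36-library edgeR fit and 0.131 over the 12 libraries. JAZ2 (LOC_Os07g05830), a repressor of jasmonate signalling, was the 1 of 22 jasmonate genes called higher (4.18% of all genes). It had 2.09 to 19.7 CPM at flowering, against 11.5 and 3.98 CPM in the heading panicles of plants 43 and 47 and at most 0.279 CPM in the other 4 (edgeR adjusted p = 0.0149; 0.0593 without the flowering panicle of plant 230 and 0.519 without a year term). The replicate block gave adjusted p = 0.155 over the 12 libraries and 0.0387 in the 36-library edgeR fit. None of 5 seed shattering genes, 15 abscisic acid and dehydration genes, 9 clock genes or 6 housekeeping genes was called. OsSh1 (LOC_Os03g44710), a YABBY factor of shattering, had 49.3 to 153 CPM at flowering and 48.0 to 152 CPM at heading.

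Genes were also ranked over the whole table, and no annotation was used. Besides RBCS3, RBCS4 and OsC6, which ranked high by difference in CPM, those ranked highest carry no symbol here. The ranking by log2 difference took called genes that did not overlap and had a mean of at least 10 CPM in the higher stage. Its highest log2 difference was that of LOC_Os08g38250, with 6.71 to 1324 CPM in flowering panicles (median 63.9) and no count in any heading panicle. Taking 3 counts over the 6 heading libraries as the most that a count of 0 allows, it was at least 1680-fold higher at flowering (edgeR adjusted p = 0.00566). Without the flowering panicle of plant 230, which had the highest value, it was at least 564-fold higher (edgeR adjusted p = 0.00445). The lowest log2 difference in the same ranking was that of LOC_Os02g44320, at 0 to 0.381 CPM in flowering panicles and 21.0 to 134 CPM in heading panicles. It was −7.89 ± 1.05 (SE; edgeR adjusted p = 0.000243). The largest differences in CPM were those of LOC_Os03g04770, at 993 to 9045 CPM in flowering panicles and 53.2 to 248 CPM in heading panicles, and of LOC_Os08g45150, at 14.7 to 311 CPM in flowering panicles and 289 to 8407 CPM in heading panicles.

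The panicles of plant 47 were also read by RNA-seq, with 1 library per stage and therefore no test. Ratios were taken as log2((RPKM + 1) ratio), flowering over heading. Of the 837 genes called higher, 824 were in the RNA-seq table and 765 of them (92.8%) had a ratio above 0, while 773 of 802 genes called lower (96.4%) had a ratio below 0. Among genes not called the shares were 50.6% above and 48.2% below 0. All 18 list members called higher and 21 of 23 called lower had the called direction. The exceptions were CYP703A3 (0.26) and SWN2 (0.02). Some ratios in the called direction were also close to 0, among them API5 (−0.01) and KO2 (0.10). RUPO had 23.4 RPKM at flowering and 0.0384 RPKM at heading, OsC6 had 46.5 RPKM at flowering and 5478 at heading, and CESA9 had 1.34 RPKM at flowering and 55.8 at heading. The RNA-seq libraries come from 1 of the 6 plants sampled per stage, a plant that is also among the tag libraries.

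**Figure D4:**
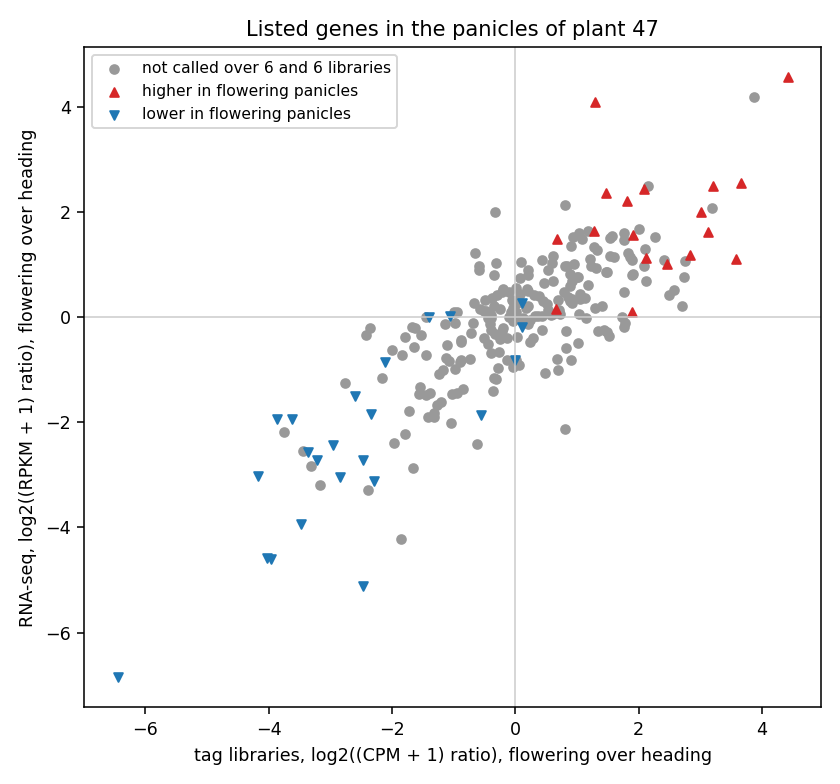
Stage ratio of the listed genes in plant 47, from tag libraries (horizontal, log2 of the CPM + 1 ratio) and RNA-seq (vertical, log2 of the RPKM + 1 ratio), both flowering over heading. Triangles pointing up are genes called higher over the 6 and 6 tag libraries and lie above 0 in RNA-seq, and triangles pointing down are genes called lower, of which 21 of 23 lie below 0.

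The same stages of O. nivara, the annual relative, served to ask whether the differences were particular to O. rufipogon. No gene had a stage difference that differed between the species in edgeR (0 of 20018, 0.00%), and DESeq2 called 9. In edgeR 934 genes had an unadjusted p under 0.05, fewer than that threshold alone would give over 20018 genes without a difference. O. nivara had 1363 higher (6.81%) and 1211 lower (6.05%) genes, and 501 of the higher and 485 of the lower genes were also called in O. rufipogon, none in the opposite direction. The shared genes were thus 59.9% of the higher and 60.2% of the lower genes of O. rufipogon, and 36.8% and 40.0% of those of O. nivara. Late pollen genes had a median log2 difference of 4.12 in O. rufipogon and 3.46 in O. nivara, and pollen wall genes −4.47 and −4.65. Photosynthesis genes had 0.68, with 5 of 34 higher, in O. rufipogon, and 1.91, with 28 of 34 higher, in O. nivara. Cell wall genes had −2.46, with 9 of 12 lower, in O. rufipogon, and −1.24, with 3 of 12 lower, in O. nivara. No single member of these lists passed the test of the difference between species.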

How the data were processed

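Panicles were profiled as DGE tags, cut with NlaIII and MmeI, per the labels' protocols. The deposited counts are whole tag counts per gene. The deposited TPM equal those counts over a library total, with no length term, and were used only to recover that total, and 0.731% to 2.83% of counts lay outside the listed genes. All 20134 listed genes reached 5 TPM in at least 4 libraries, so the table had been filtered before deposit. The authors' RNA-seq values are RPKM for 37497 genes. Per the submitters' processing notes, BWA and edgeR 3.6.8 were used, and the genome build is not given in the sources used here. Strand handling and the treatment of tags shared by copies are not given either.

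Counts were fitted with edgeR 4.0.16 (R 4.3.3) quasi-likelihood tests, TMM scaling and its default filter, over all 36 DGE libraries. The model held the mean of each of 6 groups, plus an effect of year within each tissue. Differences are flowering minus heading, Benjamini-Hochberg adjusted over 20018 genes, and called under 0.05. Single values were tested by exact permutation over 924 splits with SciPy 1.17.1. limma 3.58.1 and DESeq2 1.42.0 served as alternatives, and scripts were tested on simulated data. Each library is 1 plant, and intervals over counts cover counting error only. RPKM ratios used a pseudocount of 1.

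Plant numbers pair the stages, since a shared number was taken as the same plant, and deviations from the stage means correlated at r = 0.369 to 0.622 in the 5 pairs. After removing year they correlated at 0.204 to 0.487. The fit without the block is the main one.

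The members and gene lists were chosen with earlier results of these data known. Genes named were, per list, up to 4 called members a direction with the largest difference and up to 3 abundant ones not called, plus the genes with the largest differences over the table. CESA1, CESA3, CESA8, KS1, the endosperm markers, CYP703A3 and SWN2 fall outside this and were chosen after their values were seen. Gene symbols come from general knowledge of rice genes and were not checked against an annotation.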

Additional observations from a re-analysis of the deposited data

Results flagged for a closer look

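Of 178 gene and stage sets of 6 libraries, 6 had 1 library far from the other 5, where chance alone gives about 1 in 20. The number found was thus no higher than that rate gives, and the sets share the same libraries. The flowering panicle of plant 230 was the library that stood apart in 4 of the 6. CYP704B2 had 10.1 CPM there, against 1.32 to 2.67 CPM in the other flowering panicles. OsINV4 had 1.26 CPM there, against 84.1 to 580 CPM in the others. PCNA, the sliding clamp of DNA replication, had 3.77 CPM there, against 12.6 to 21.4 CPM in the others. KO2 had 58.6 CPM there, against 271 to 558 CPM in the others. The heading panicle of plant 49 stood apart in the remaining sets. CSA had 1.07 CPM there, against 27.4 to 129 CPM in the other heading panicles, and OsC6 had 5.68 CPM, against 908 to 14122 CPM.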

How the results depend on the processing

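DESeq2's Wald test called 1278 higher and 1221 lower genes, and 9 genes whose stage difference differed between the species, where edgeR called none. Without a year term 633 genes were higher and 446 lower, with only the plants of 2009 there were 2 higher and 1 lower, and with only those of 2010 there were 735 higher and 432 lower. Leaving out 1 library at a time gave 454 to 877 higher and 508 to 922 lower genes, the fewest without the flowering panicle of plant 230. Without the heading panicles of plants 43 and 199, chosen after seeing the data, there were 469 higher and 427 lower. The cause of these shifts was not tested, and the part that a smaller number of libraries had in them was not tested either. With plant as a replicate block the counts were 908 higher and 1000 lower over the 12 libraries, and 978 higher and 689 lower over 36. The genes were only partly the same. Of the 1643 genes called in the main fit, 1071 were also called in the 12-library block fit, which tested 17853 genes. The 36-library block fit shared 1220 of them. Paired over the 5 plants, genes detected differed by 107.6 (exact permutation p = 0.3125, the smallest possible being 0.0625) and the share of the 100 most abundant genes by −0.056 percentage points. Of 112 genes named by the rule, 15 changed their call in a block fit. Of 56 called, 44 kept the call without each library in turn and 30 under every alternative but the single years. Only 1 (LOC_Os02g44320) kept it under every setting. These counts pass over settings that gave no value for a gene, and ACOS12 had a value in 21 of 23 alternatives. Of the 56, 12 were lost without a year term. A direction was counted as turned only where the gene was called in the main fit or in the alternative. By that rule 0 of the 112 turned, and sign changes of genes called in neither fit were not counted.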
